A study of Mus musculus with 18 samples.

Results

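Narf, Sash1, Ptpn3, Rasal2, Tns3, Enpep, Prg4, Ldhd and Nup54 are 9 liver-expressed genes, of 52230 mouse genes with estimated counts and 10938 tested here, whose levels in LL against PP livers held or shifted from one test to another. They were picked by symbol for that reason, with the LL changes known. The LL change was larger in females for Narf, Sash1 and Ptpn3 and in males for the other 6. The LL contrasts of both sexes may have entered the choice, so all differences between LL and PP livers of these genes are given as descriptions, and DEG there only reports what the fit called. Tests are given for the contrast between the sexes and for the slope on fragment length within groups, which do not use the difference between LL and PP mice.

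GKRP, the product of Gckr, is a hepatocyte protein that binds glucokinase, the enzyme that phosphorylates glucose on entry into the liver cell. It holds glucokinase inactive in the nucleus when glucose is low and releases it after a meal. The 9 genes belong to several unrelated systems. Narf encodes a nuclear protein that recognises prelamin A and is related to iron-only hydrogenases. Sash1 encodes a scaffold with SAM and SH3 domains, Ptpn3 a tyrosine phosphatase with a FERM domain, Rasal2 a Ras GTPase-activating protein and Tns3 a tensin that links integrins to actin at focal adhesions. Enpep encodes glutamyl aminopeptidase, a membrane enzyme that cuts angiotensin II. Prg4 encodes lubricin, a secreted proteoglycan, Ldhd the mitochondrial D-lactate dehydrogenase, and Nup54 a nucleoporin of the central channel of the nuclear pore.

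Liver RNA was sequenced from 18 mice of a Gckr knock-in line on the B6N background, 1 library per mouse. There were 4 PP and 4 LL males, and 5 PP and 5 LL females. PP mice carried the wild-type Gckr-446P form, with proline at residue 446 of GKRP, and LL mice were homozygous for Gckr-446L, with leucine at that residue in every cell. All were kept on standard chow with no other treatment, the PP mice were littermates, and a single knock-in line was used. The labels give ages of 9 to 14 weeks in PP males, 13 to 14 in LL males, 9 to 14 in PP females and 11 to 14 in LL females. The paper instead gives 14 weeks for the mice of its liver RNA sequencing on regular diet. The P-values measure the spread between these mice.

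Total estimated counts ranged from 3794671 to 6613905 per library. The fragment length of a library, taken as the median of length less effective length over long transcripts, was 518 ± 95.7 bases in male PP, 407 ± 156 in male LL (SD, n = 4 each), 448 ± 108 in female PP and 292 ± 52.1 in female LL (SD, n = 5 each). LL libraries thus had shorter fragments on average in both sexes, with overlapping ranges. Mitochondrial transcripts took 8.51% to 10.6% of counts in male PP and 9.94% to 17.9% in male LL libraries, and 9.07% to 12.0% in female PP and 10.5% to 13.6% in female LL libraries. Gckr itself differed little by LL genotype, with log2 fold changes of -0.12 ± 0.15 (SE) in males and -0.05 ± 0.13 in females (DESeq2 adjusted P = 0.860 and 0.915), and its mRNA level does not check the genotype labels. The hepatocyte markers Alb, Ttr, Apoa1, Cps1, Cyp2e1, Serpina1c, Fgb and Ass1 had summed normalized counts, dominated by Alb, with medians of 510569 in PP and 636803 in LL males, and 802341 in PP and 696568 in LL females. The part of age, fragment length, mitochondrial share and these markers in the LL differences of the 9 genes was not tested. The exceptions were an age term and a fragment length term in the fit. In whole liver, fewer cells of a type and less RNA per cell cannot be told apart.

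Narf, Sash1 and Ptpn3 were lower in LL than in PP females, each to between 0.540 and 0.593 of the PP mean. No female LL mouse reached the lowest PP mouse in any of these genes. Narf had normalized counts (estimated counts scaled for library depth) of 200.4, 138, 178, 125 and 199.9 in the female PP mice. In the female LL mice it had 101, 93.9, 82.9, 93.8 and 83.2. The LL values lay close together and the PP values spread widely, at 91.0 ± 7.80 against 168 ± 35.0 (SD, n = 5 each). The log2 fold change was -0.89 ± 0.16 (SE).

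The sequence upstream of Narf (ENSMUSG00000000056, GRCm39 11:121127532-121149337, plus strand) is shown because no other gene of the set had as many CCAAT boxes there. CCAAT or its reverse complement ATTGG occurred 4 times in the RefSeq window of 300 bases around the start, all before it. At least 1 occurrence was found in 37.4% of 32851 mouse promoter windows of that length, and 4 or more in 1.06%. Matches are descriptions of letters and not evidence of binding. The 250 bases before the start of Narf (GRCm38.p6 11:121236986-121237235, plus strand, with the boxes in capitals) are:
Narf: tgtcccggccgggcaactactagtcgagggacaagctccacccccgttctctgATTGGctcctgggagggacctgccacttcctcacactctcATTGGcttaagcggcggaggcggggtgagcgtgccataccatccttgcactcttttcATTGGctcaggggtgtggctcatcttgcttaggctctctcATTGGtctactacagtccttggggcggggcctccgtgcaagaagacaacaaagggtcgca

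Sash1 (ENSMUSG00000015305, GRCm39 10:8597917-8761989, minus strand) had 82.2, 70.9, 86.4, 63.4 and 82.6 normalized counts in female PP mice. In female LL mice it had 51.9, 39.5, 43.1, 43.2 and 43.8. The highest LL mouse was below the lowest PP mouse, and the means were 44.3 ± 4.57 and 77.1 ± 9.61 (SD, n = 5 each), with a log2 fold change of -0.80 ± 0.17 (SE). The gap between the groups was narrower than for Narf, at 51.9 against 63.4 counts.

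Ptpn3 (ENSMUSG00000038764, GRCm39 4:57190839-57301853, minus strand) had 89.4, 97.3, 101.6, 76.1 and 101.3 normalized counts in female PP mice. In female LL mice it had 62.8, 52.4, 53.7, 58.0 and 49.2. As for Narf and Sash1, the female PP mouse with the fewest counts was mouse 4, and it still lay above every LL mouse. Ptpn3 had a log2 fold change of -0.76 ± 0.16 (SE). In the female contrast 32 genes were lower DEGs by LL genotype, 0.293% of those tested, and 3 of the 9 genes were among them, a count that the choice of the genes may fix. The DESeq2 adjusted P there were 5.77e-05 for Narf, 0.00113 for Sash1 and 0.0011 for Ptpn3. The nearest of the other genes in that contrast was Enpep, with an adjusted P of 0.558.

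**Figure D1:**
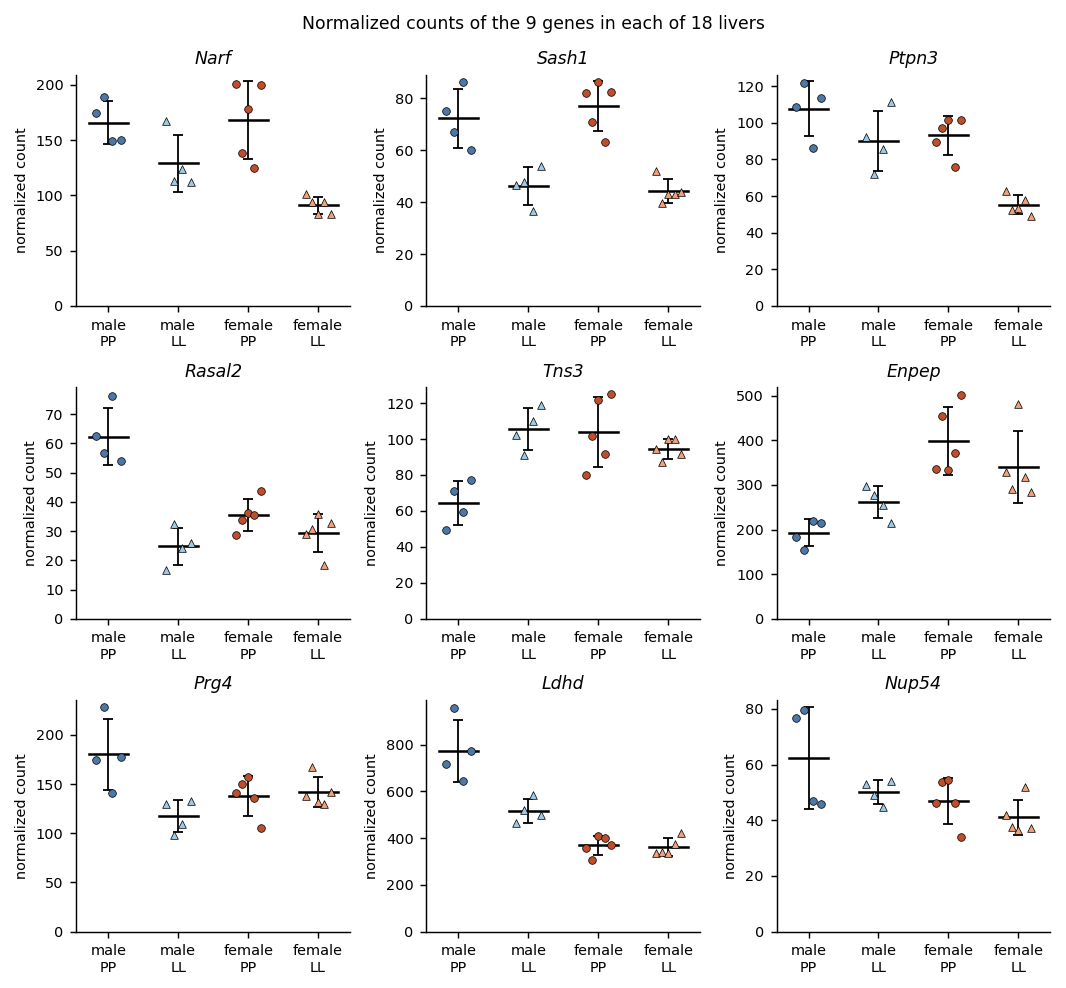
Normalized count (y axis, from 0) of each gene in the livers of PP and LL males and of PP and LL females (x axis), with 1 point per mouse, a bar at the group mean and an error bar of 1 SD. Narf, Sash1 and Ptpn3 separate PP from LL in females, Sash1 also in males, while Rasal2, Tns3, Prg4 and Ldhd separate them in males and not in females.

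Narf, Sash1 and Ptpn3 also had lower mean counts in LL males, and none was a DEG there. On log2(TPM + 1) Narf was 0.10 and Ptpn3 0.11 higher in LL males, on a scale where the median of all genes was 0.234 higher. Over both directions, 0.283% of genes were DEGs by LL genotype in males. Sash1, the scaffold, came closest. It had 75.2, 67.1, 86.5 and 60.3 normalized counts in male PP mice and 46.7, 48.0, 36.6 and 54.0 in male LL mice. Every LL male lay below every PP male, a pattern that 2.27% of genes tested showed in that direction. The means were 72.3 ± 11.3 and 46.3 ± 7.23 (SD, n = 4 each), and the log2 fold change was -0.65 ± 0.20 (SE; 95% interval -1.04 to -0.26).

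DESeq2 gave no adjusted P for Sash1 or Ptpn3 in males, because its independent filtering kept only 3301 of 10938 genes in that contrast. Sash1 was not a DEG in any of the 19 alternatives that gave an adjusted P. Sash1-201, the transcript that carried 99.9% of the gene's counts, was called in the fit of single transcripts (log2 fold change -0.68 ± 0.18, SE), where 1.04% of 19874 transcripts were called. The call for Sash1 in males thus depended on whether genes or transcripts were tested, while the estimate stayed between -0.74 and -0.54 when any 1 library was left out and was -0.05 on log2(TPM + 1), before the median shift of all genes is taken off.

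Narf had 174, 189, 149 and 150.3 normalized counts in male PP mice. In male LL mice it had 167, 113, 124 and 112. LL mouse 1 lay within the PP range and the other 3 lay below it. PP mice 1 and 2, with the most counts, were labelled 9 and 12 weeks and the others 14. The log2 fold change was -0.36 ± 0.18 (SE; 95% interval -0.72 to -0.01).

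Ptpn3 had 109, 122, 86.5 and 113 normalized counts in male PP mice and 92.0, 71.9, 85.7 and 111 in male LL mice. The ranges overlapped, with LL mouse 4 near the top of the PP range. The log2 fold change was -0.25 ± 0.17 (SE; 95% interval -0.59 to 0.09). The interval still holds a fall as large as 0.59 on the log2 scale. The genotype effects in the 2 sexes were not tested against each other for these genes.

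Rasal2 had the lowest male ratio of the 9 genes, at 0.398 of the PP mean in LL males. Rasal2 (ENSMUSG00000070565, GRCm39 1:156962752-157240165, minus strand) had 62.4, 56.7, 76.1 and 54.0 normalized counts in male PP mice. In male LL mice it had 16.8, 32.4, 24.1 and 25.9. On normalized counts the groups were far apart, with 54.0 as the lowest PP and 32.4 as the highest LL value. The log2 fold change was -1.32 ± 0.25 (SE). By TPM of its main transcript, Rasal2-201, the ranges overlapped, at 0.463 to 0.519 in male PP and 0.225 to 0.484 in male LL mice. Its low level bounds the precision, since the libraries held 13.1 to 80.5 estimated counts of Rasal2. Exons of Gm70636 on the opposite strand overlapped 244 bases of Rasal2-201, 2.43% of its length. Whether the library kept strand is not given, so reads of both genes there cannot be told apart. Gm70636 had a log2 fold change of 0.61 ± 0.44 (SE) in males. DESeq2 gave no adjusted P for Rasal2 in males, and it was a DEG in 12 of the 16 alternatives that gave one.

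In females Rasal2 had 28.7, 33.6, 36.1, 35.3 and 43.7 normalized counts in PP and 29.1, 30.6, 35.8, 18.5 and 32.8 in LL mice. Every female mouse lay below the lowest PP male, and 3 of the 5 LL females and 1 of the 5 PP females lay within the range of the LL males. The female log2 fold change was -0.26 ± 0.22 (SE; 95% interval -0.68 to 0.16). In the order of the 4 group means, male PP mice stood apart from female PP mice with no overlap, and the 3 lower groups overlapped as neighbours.

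Tns3 (ENSMUSG00000020422, GRCm39 11:8381631-8614681, minus strand) was higher in LL than in PP males. It had 49.6, 71.3, 59.2 and 77.4 normalized counts in male PP mice. In male LL mice it had 102, 91.1, 109.8 and 119. Every LL male exceeded every PP male, the ratio of means was 1.64, and the log2 fold change was 0.70 ± 0.18 (SE). DESeq2 gave no adjusted P for Tns3 in males, and it was a DEG in 6 of the 19 alternatives that gave one.

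In females Tns3 had 79.8, 101.8, 122, 91.5 and 125 normalized counts in female PP mice and 94.7, 86.9, 100.01, 99.95 and 91.9 in female LL mice. The LL mice lay inside the PP range. The log2 fold change was -0.14 ± 0.15 (SE; 95% interval -0.44 to 0.16), and it was 0.04 with fragment length as a term. Both female groups and the male LL group overlapped, and PP males alone were lower.

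Enpep (ENSMUSG00000028024, GRCm39 3:129062824-129126369, minus strand) had 184, 154, 219 and 215 normalized counts in male PP and 297, 278, 256 and 215 in male LL mice. LL mouse 4 lay within the PP range and the other 3 above it. The log2 fold change was 0.43 ± 0.19 (SE). Of the 6 genes with the larger change in males, DESeq2 gave an adjusted P in that contrast only for Enpep, Prg4 and Ldhd. It was 0.339 for Enpep, above the limit of 0.05, and 0.0458 for Prg4, just below it. In females Enpep had 335, 454, 332, 371 and 501 counts in PP mice. In LL mice it had 329.6, 291, 481, 317 and 285. The female LL mice apart from mouse 3 lay below every PP mouse, and the log2 fold change was -0.22 ± 0.17 (SE; 95% interval -0.55 to 0.10).

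Prg4 (ENSMUSG00000006014, GRCm39 1:150325163-150342009, minus strand) had 174, 229, 141 and 177 normalized counts in male PP mice and 129.6, 98.3, 109.8 and 133 in male LL mice. No LL male reached a PP male, and Prg4 had a log2 fold change of -0.62 ± 0.17 (SE). It was a DEG in 4 of the 22 alternatives that gave an adjusted P, and all 4 were fits with 1 library left out. Without male PP mouse 2 the log2 fold change was -0.48 with an adjusted P of 0.566. In females it had 141, 150.0, 157, 136 and 105 counts in PP mice and 138, 167, 132, 129.6 and 142 in LL mice. The female groups overlapped throughout, with a log2 fold change of 0.04 ± 0.15 (SE; 95% interval -0.25 to 0.34).

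Ldhd (ENSMUSG00000031958, GRCm39 8:112350417-112357006, minus strand) had the highest level per length of the 9 genes in male PP mice by TPM summed over its transcripts. Its normalized counts were 717, 958, 645 and 772 in male PP mice and 464, 520.3, 584 and 498 in male LL mice. Every LL male lay below every PP male, and the log2 fold change was -0.58 ± 0.14 (SE; adjusted P = 0.00441). Without male PP mouse 2, the highest, it was -0.46 with an adjusted P of 0.138, and without male LL mouse 1 it was -0.53 with 0.0810. In females Ldhd had 360.1, 306, 409.6, 400.4 and 373 counts in PP mice and 337, 341, 336, 376 and 421 in LL mice. The female groups had nearly the same mean, with a log2 fold change of -0.03 ± 0.12 (SE; 95% interval -0.27 to 0.21).

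Nup54 (ENSMUSG00000034826, GRCm39 5:92563399-92583112, minus strand) had 76.8, 79.7, 47.0 and 45.9 normalized counts in male PP mice and 53.1, 49.2, 44.6 and 54.0 in male LL mice. PP mice 1 and 2, labelled 9 and 12 weeks, were high. The other 2, labelled 14 weeks, lay within the LL range, and the LL males were labelled 13 to 14 weeks. The log2 fold change was -0.29 ± 0.23 (SE). The part of age in this was not tested, other than by an age term. DESeq2 gave no adjusted P for Nup54 in males, and it was a DEG in 3 of the 19 alternatives that gave one. In females it had 46.3, 53.6, 54.6, 46.2 and 34.0 counts in PP mice and 41.9, 37.5, 36.6, 51.8 and 37.2 in LL mice, with overlapping ranges and a log2 fold change of -0.20 ± 0.21 (SE; 95% interval -0.60 to 0.21).

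Of the 9 genes, 0 were DEGs by LL genotype in the sex with their smaller change with DESeq2 or edgeR. DESeq2 called 0.283% of all genes in males, where 3301 of 10938 had an adjusted P, and 0.658% in females. edgeR called 0.0274% in each sex. Without an adjusted P in males, Sash1 and Ptpn3 could not be called by DESeq2 there. By point estimate 6 of the 9 were lower in LL mice of both sexes. LL and PP ranges of normalized counts were apart in males for 5 genes. These were the 4 lower genes Sash1, Rasal2, Prg4 and Ldhd and the higher gene Tns3. In females the ranges were apart for Narf, Sash1 and Ptpn3. Over all genes tested, 4.07% were apart in males and 2.66% in females. Only Sash1 of the 9 was apart in both.

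**Figure D2:**
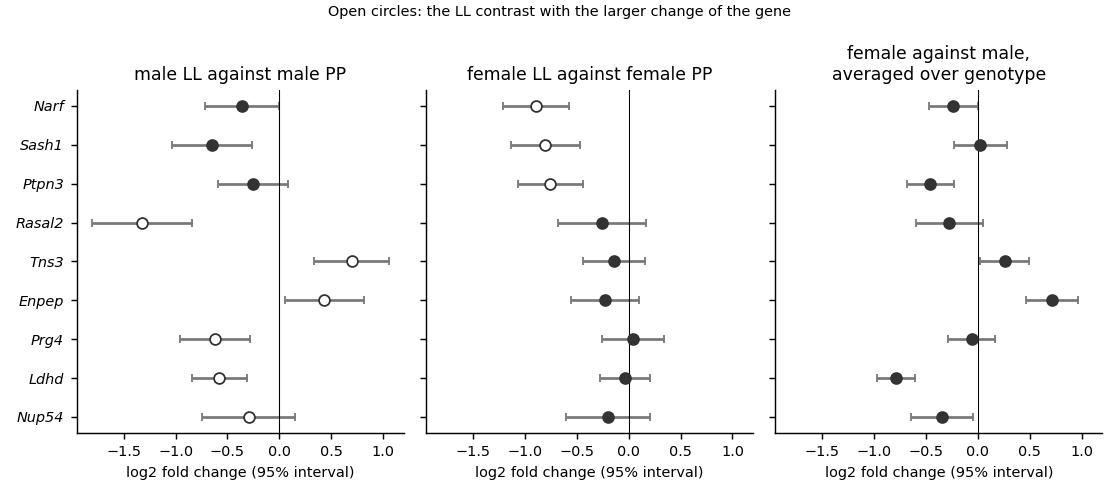
Log2 fold change (x axis) with its 95% interval for each gene (y axis) in 3 DESeq2 contrasts, namely LL against PP in males, LL against PP in females, and females against males averaged over genotype. Open circles mark the sex in which the LL change of the gene was larger, and among the filled circles the intervals of Sash1 in males and of Enpep, Ldhd and Ptpn3 between the sexes lie farthest from 0.

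Enpep and Ldhd were DEGs between the sexes, in opposite directions. This contrast was averaged over PP and LL mice, so that it did not use the genotype difference by which the genes were chosen, and 10.7% of genes tested were DEGs in it. Enpep was 1.63-fold higher in females by the ratio of means, or 0.71 ± 0.13 on the log2 scale (SE; DESeq2 adjusted P = 9.94e-07). All 10 female mice, at 285 to 501 counts, exceeded 7 of the 8 males, and the exception was male LL mouse 1 at 297. Enpep was called in each of 31 alternatives.

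Ldhd was lower in females, to 0.568 of the male mean. On the log2 scale the difference was -0.79 ± 0.09 (SE; DESeq2 adjusted P = 8.37e-16). The female mice lay between 306 and 421 normalized counts and the male mice between 464 and 958, with no overlap in either genotype. It was called in 28 of 31 alternatives, the exceptions being the 3 fits on TPM.

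Ptpn3 differed between the sexes by -0.46 ± 0.12 log2 (SE; DESeq2 adjusted P = 0.00162). Its fold of 0.729 did not pass the limit of 0.7, so it was not a DEG. The other 6 genes did not pass the test between the sexes. Their log2 fold changes were -0.24 ± 0.12 for Narf, 0.02 ± 0.13 for Sash1, -0.27 ± 0.16 for Rasal2, 0.26 ± 0.12 for Tns3, -0.06 ± 0.11 for Prg4 and -0.35 ± 0.15 for Nup54. The adjusted P of these genes ran from 0.117 to 0.933.

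The 250 bases before the start are shown for Enpep and Ldhd, because these genes passed the test between the sexes. TTCNNNGAA, the palindrome recognised by STAT proteins, is in capitals for Enpep and was present in 8.30% of 32851 windows of 300 bases around mouse gene starts. CACGTG, the E-box core, is in capitals for Ldhd and was present in 7.15% of those windows. CACGTG was also in the window of Nup54, and those of Sash1, Ptpn3, Rasal2 and Tns3 held neither motif. RefSeq promoters matched 8 of the 9 genes, all but Prg4. The stretches are GRCm38.p6 3:129332750-129332999 for Enpep and GRCm38.p6 8:111630337-111630586 for Ldhd, both on the minus strand:
Enpep: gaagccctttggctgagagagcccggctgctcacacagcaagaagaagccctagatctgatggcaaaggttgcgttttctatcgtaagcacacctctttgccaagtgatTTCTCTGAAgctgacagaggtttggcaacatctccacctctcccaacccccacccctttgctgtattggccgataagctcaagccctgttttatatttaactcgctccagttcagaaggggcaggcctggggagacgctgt
Ldhd: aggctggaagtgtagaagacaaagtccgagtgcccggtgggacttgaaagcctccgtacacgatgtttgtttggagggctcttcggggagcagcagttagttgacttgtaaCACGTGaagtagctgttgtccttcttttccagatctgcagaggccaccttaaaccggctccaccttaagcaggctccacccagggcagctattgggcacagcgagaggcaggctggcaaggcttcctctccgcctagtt

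Fragment length was compared with the 9 genes because LL libraries had shorter fragments. Within groups, none of the 9 had a called slope on fragment length, where 0.0457% of genes had one (5 of 10938). The largest were 0.11 ± 0.06 (SE) log2 per 100 bases for Tns3, 0.10 ± 0.06 for Ptpn3 and 0.08 ± 0.06 for Prg4. The unadjusted P was 0.0627 for Tns3 and 0.108 for Ptpn3, and the adjusted P of all 9 was 0.998. The slopes of the other 6 lay between -0.04 and 0.03.

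The female calls were affected differently when fragment length entered the fit. Narf stayed at -0.87 on the log2 scale (adjusted P = 0.0145), while Sash1 moved to -0.75 (adjusted P = 0.117) and Ptpn3 to -0.61 (adjusted P = 0.225). In that fit 0.128% of genes were DEGs in females. With edgeR and fragment length together the adjusted P was 0.398 for all 3. Fragment length differed between the female groups, from 369 to 631 bases in PP and from 247 to 377 in LL libraries, and its part in these differences was not tested beyond this term. In males the term left Rasal2 at -1.37 (adjusted P = 0.000901) and Ldhd at -0.57 (0.0480), raised Tns3 to 0.83 (0.0093) and moved Prg4 to -0.54 (0.270). In that fit 0.338% of genes were DEGs in males. With edgeR and fragment length together, 0 genes were DEGs by LL genotype in males, and 0 in females. With edgeR and no such term, 1 gene of the set was a DEG in males and 3 were in females.

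**Figure D3:**
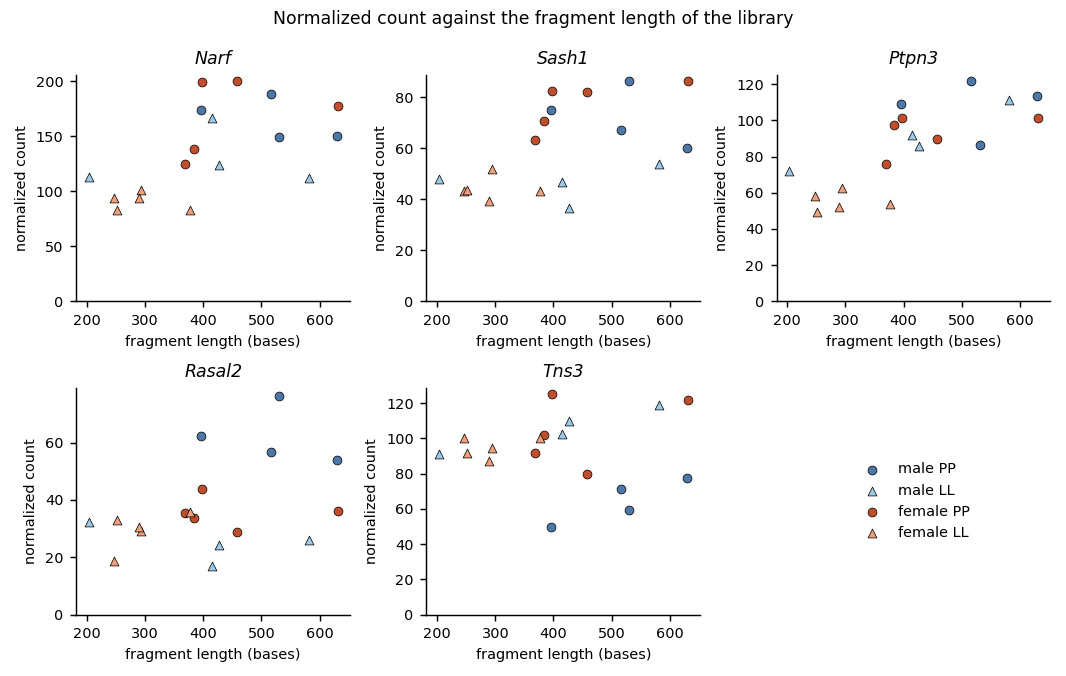
Normalized count (y axis, from 0) of Narf, Sash1, Ptpn3, Rasal2 and Tns3 against the fragment length of the library in bases (x axis), with 1 point per mouse coloured by group. Female LL libraries lie at 247 to 377 bases, mostly to the left of female PP libraries at 369 to 631, and no gene had a called slope within groups.

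Estimates for the same contrast also depended on how transcript length was treated. With a transcript length offset, which corrects counts for the mix of transcripts in each library, male Nup54 moved from -0.29 to -2.24 (adjusted P = 3.94e-07) and male Enpep from 0.43 to 0.92 (0.00233). Under the same setting the male values of Ldhd (-0.54, adjusted P = 0.320) and Prg4 (-0.49, 0.507) and the female value of Sash1 (-0.63, 0.118) were not called. Short transcripts took much of the TPM of both genes in some libraries, with 60.9% of Enpep TPM on the 780-base Enpep-202 in male LL mouse 4 from 19.4 estimated counts.

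**Figure D4:**
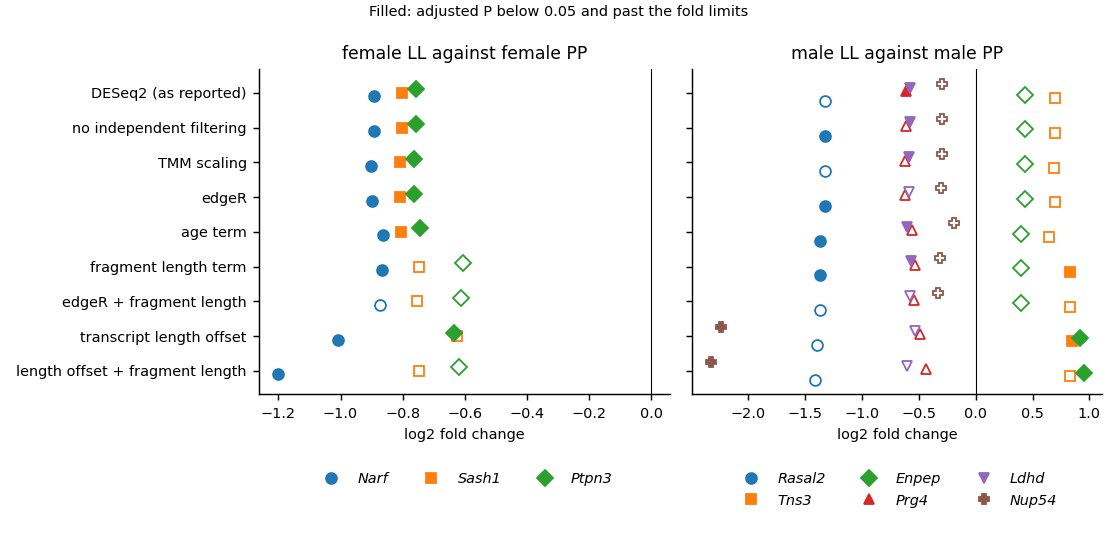
Log2 fold change (x axis) of the genes under 9 settings of the fit (y axis), for the females at left and the males at right. Filled symbols pass the adjusted P and fold limits and open symbols do not or, as for Rasal2 with DESeq2 as reported, have no adjusted P. Narf is filled in 8 of the 9 female settings, and Nup54 stands at -2.24 with the length offset against -0.29 without it.

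Most of the 9 genes were expressed as 1 transcript. The leading transcript held at least 95% of the gene's estimated counts in 6 of them, namely Narf-201 (99.7%), Sash1-201 (99.9%), Ptpn3-201 (99.9%), Rasal2-201 (98.0%), Tns3-201 (99.8%) and Enpep-201 (99.2%). In TPM, which scales by length and lets genes be compared, these main transcripts were scarce. In male PP mice the level was 3.39 ± 0.79 TPM for Narf-201, 0.84 ± 0.05 for Sash1-201, 1.47 ± 0.41 for Ptpn3-201, 0.49 ± 0.03 for Rasal2-201, 0.75 ± 0.25 for Tns3-201 and 4.13 ± 0.80 for Enpep-201 (SD, n = 4). Ldhd-202 stood at 14.2 ± 2.78 TPM. TPM values were higher in LL than PP males for most genes, with a median shift of 0.234 log2 over all genes, and 0.376 higher in females than in males. Levels between groups are therefore read from normalized counts, and the order of the 4 group means was the same on the TPM scale for 2 of the 9 genes.

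Ldhd, Prg4 and Nup54 were split over transcripts. Ldhd-202, annotated as a retained intron transcript, held 68.2% of Ldhd counts, and Ldhd-201, the coding transcript, held most of the rest. In GENCODE release 39 Ldhd-202 holds a pair of introns that Ldhd-201 splices out. These are intron 4 (GRCm39 8:112355778-112355912, 135 bases) and intron 5 (8:112355353-112355617, 265 bases) on the minus strand. Ldhd-201, Prg4-204 and Prg4-205 are longer in that release than in the deposited files, so their exon models may differ from those quantified. The introns are shown because they tell the transcripts apart, with the 10 flanking exon bases on each side in capitals:
Ldhd intron 4: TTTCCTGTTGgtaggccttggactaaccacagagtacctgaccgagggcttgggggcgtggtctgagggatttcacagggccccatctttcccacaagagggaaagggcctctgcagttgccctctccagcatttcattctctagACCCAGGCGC
Ldhd intron 5: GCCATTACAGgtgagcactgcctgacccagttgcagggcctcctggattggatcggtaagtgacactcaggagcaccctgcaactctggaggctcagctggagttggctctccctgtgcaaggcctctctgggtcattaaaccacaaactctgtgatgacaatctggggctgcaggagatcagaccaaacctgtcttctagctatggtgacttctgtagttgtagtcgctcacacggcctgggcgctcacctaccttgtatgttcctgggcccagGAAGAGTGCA

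In females the share of Ldhd counts on Ldhd-201 was lower in LL mice. It was 40.3%, 42.4%, 38.5%, 35.9% and 52.8% in PP mice. It was 8.59%, 17.3%, 20.6%, 14.2% and 30.8% in LL mice, so that no LL mouse reached the lowest PP mouse. The means were 42.0% ± 6.51 and 18.3% ± 8.29 (SD, n = 5 each). No test is given, since the transcript was singled out after its values were seen. How often transcript shares of other genes lay apart in this way was not counted. Female LL libraries had shorter fragments, and the part of that in these shares was not tested. The gene's total had a log2 fold change of -0.03 there, and neither transcript was a DEG, with log2 fold changes of -1.21 ± 0.45 (SE) for Ldhd-201 and 0.38 ± 0.12 for Ldhd-202, where 1.82% of transcripts were called. In males the share was 11.4%, 40.0%, 21.5% and 43.8% in PP and 19.3%, 21.7%, 33.8% and 15.1% in LL mice, and the ranges overlapped.

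Between the sexes Ldhd-202 was lower in females (-0.88 ± 0.09; DESeq2 adjusted P = 2.47e-21), in a fit where 6.28% of transcripts were called. Ldhd-201 was -0.70 ± 0.33 (adjusted P = 0.245). On the opposite strand, exons of Znrf1 overlapped Ldhd-202 over 528 bases, 15.5% of its length. Whether the library kept strand is not given in the sources used here, so reads of both genes there cannot be told apart. Znrf1 had log2 fold changes of -0.16 in males, 0.34 in females and -0.22 between the sexes.

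Prg4 counts were shared between Prg4-204, which held 53.6%, and the shorter Prg4-205. In release 39 Prg4-205 lacks 2130 bases (GRCm39 1:150329872-150332001) from within the 2286-base exon of Prg4-204, and exons of 144 and 120 bases. The edges of that stretch begin with GT and end with AG, and are shown on the minus strand with the bases kept in Prg4-205 in capitals:
Prg4 first edge: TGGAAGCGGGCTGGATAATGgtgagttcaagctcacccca
Prg4 last edge: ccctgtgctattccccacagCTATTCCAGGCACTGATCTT

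The share of Prg4-204 was 49.5%, 59.7%, 68.0%, 55.6% and 74.6% in female PP mice and 31.3%, 55.0%, 59.5%, 29.9% and 48.2% in female LL mice. The ranges overlapped, with means of 61.5% ± 9.95 and 44.8% ± 13.6 (SD, n = 5 each). In males it ranged from 33.9% to 72.1% in PP and from 17.2% to 62.1% in LL mice. Exons of Tpr on the opposite strand overlapped 350 bases of the 4371-base release 39 model of Prg4-204. Whether the 3821-base transcript of the deposited files holds them was not tested. Tpr had log2 fold changes of -0.16 in males and -0.19 in females.

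Nup54-201 held 89.9% of Nup54 counts. In males its share was 79.8%, 85.2%, 80.9% and 75.9% in PP mice and 100%, 96.8%, 100% and 100% in LL mice. Male PP mice carried 9.7, 11.2, 7.3 and 0 estimated counts of Nup54-203, a retained intron transcript of 433 bases, and male LL mice carried 0. Male PP mouse 4 instead carried 10.2 counts of another Nup54 transcript, of 560 bases, which took 76.5% of the gene's TPM there. These few counts of short transcripts took up much of the gene's TPM, because a short transcript has a small effective length. By TPM the share of Nup54-201 was 20.8% ± 11.2 in PP and 97.0% ± 6.05 in LL males (SD, n = 4 each). Nup54-201 itself differed little in males (log2 fold change -0.02 ± 0.24, SE). Exons of Art3 on the opposite strand overlapped 210 bases of Nup54-201, 8.93% of its length, and reads of both genes there cannot be told apart. Art3 had log2 fold changes of -0.22 ± 0.65 (SE) in males and -0.76 ± 0.48 in females. In females the share of counts was 90.8% ± 7.26 and 90.1% ± 7.76 (SD, n = 5 each). Of the 31-base words of Nup54-201 in release 39, 31.7% also occurred in other genes, against 0 to 15.0% for the main transcripts of the other 8.

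**Figure D5:**
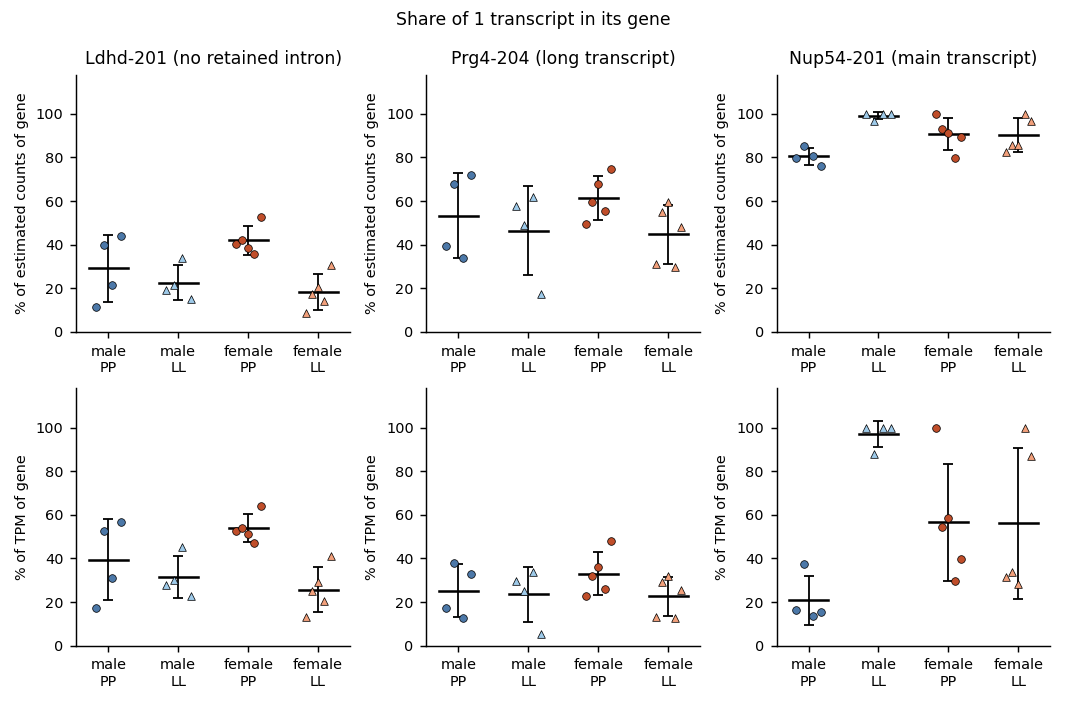
Share of Ldhd-201, Prg4-204 and Nup54-201 in the estimated counts (top) and in the TPM (bottom) of their gene in percent (y axis), with 1 point per mouse in PP and LL males and in PP and LL females (x axis), a bar at the mean and an error bar of 1 SD. Ldhd-201 falls from 42.0% to 18.3% of counts between female PP and LL mice, and Nup54-201 goes from 20.8% to 97.0% of TPM in males on a few counts of short transcripts.

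The partners of each gene were counted from lists by function. Apart from the 9 genes themselves, 0 of 100 tested genes of these lists were DEGs by LL genotype in either sex with DESeq2. An unadjusted P below 0.05 was found for 8 in males and 9 in females, against 7.83% and 13.0% of all genes tested. Of 12 genes of the Narf family and cytosolic iron-sulfur assembly 12 were tested, and the median log2 fold change was -0.06 in males and 0.02 in females. For 12 lamin and prelamin processing genes the medians were 0.21 and 0.03. The medians over all genes were 0.00 and 0.01. Of 12 FG nucleoporins, the channel lining proteins that include Nup54, 11 were tested, with medians of -0.03 in males and -0.22 in females. The 19 scaffold nucleoporins had medians of -0.06 and -0.09.

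The medians for 8 tested of 12 Ras GTPase-activating proteins were 0.01 in males and -0.18 in females, and for 17 tested of 18 tensin and focal adhesion genes they were 0.06 and -0.14. Only 1 of 3 SASH and SLY adaptors, 3 of 5 FERM domain phosphatases and 4 of 8 genes of lubricin and its receptors passed the filter on low counts.

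Between the sexes some partners were called, in a contrast where 10.7% of all genes were DEGs. In the renin-angiotensin list 5 of 11 genes were tested, and Agt (0.89 ± 0.16), Mme (0.98 ± 0.22) and Agtr1a (0.50 ± 0.15) were higher in females together with Enpep. Agt encodes angiotensinogen, Mme the peptidase neprilysin and Agtr1a an angiotensin II receptor. Their DESeq2 adjusted P were 1.06e-06, 0.000127 and 0.00713. In the list of lactate and methylglyoxal handling, 10 of 12 genes were tested. Ldhd was the only one called lower in females, while the monocarboxylate transporters Slc16a7 (1.23 ± 0.18) and Slc16a1 (0.57 ± 0.15) and the mitochondrial pyruvate carrier subunits Mpc1 (0.50 ± 0.11) and Mpc2 (0.68 ± 0.14) were higher (SE). Itga5, Zyx and Tns2 of the adhesion list, Dab2ip of the Ras list, Rnpepl1 of the aminopeptidases and Lbr of the lamin list were also higher in females, by 0.40 to 0.77 on the log2 scale.

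The genes with the most similar pattern over the 18 libraries were found among 5645 genes by Pearson's r of log2 normalized counts, as a description. The libraries share sex, genotype and fragment length, so r after centring each group is given beside it. Narf was closest to Sh3d19 (0.84, 0.81 after centring), Ptpn3 (0.84, 0.43) and Apob (0.83, 0.62). Sash1 was closest to Pgap1 (0.80, 0.48), Narf (0.78, 0.31) and Pcsk7 (0.77, 0.29). Ptpn3 was closest to Stat6 (0.90, 0.58), Ahcyl (0.89, 0.52) and Atp11b (0.86, 0.66). The high r between Narf, Sash1 and Ptpn3 fell to 0.43 or less once the groups were centred.

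Rasal2 was closest to Wdr45b (0.77, 0.58), Arhgef26 (0.76, 0.57) and Ipo4 (0.75, 0.54), and Tns3 to Ablim1 (0.81, 0.75), Acat2 (0.80, 0.63) and Nadk (0.78, 0.56). Enpep was closest to Ehd3 (0.91, 0.76) and the acyl-CoA thioesterases Acot3 (0.89, 0.64) and Acot4 (0.89, 0.83). Prg4 was closest to Lbp (0.78, 0.58), Fgl1 (0.75, 0.63) and Orm2 (0.74, 0.48), which are secreted by the liver in the acute phase. Ldhd was closest to Gstp1 (0.93, 0.60), Saa4 (0.93, 0.46) and Saa1 (0.92, 0.52). Nup54 was closest to Ube2j1 (0.83, 0.84), Sorbs2 (0.81, 0.74) and Chmp7 (0.78, 0.72). Among the 9 genes, Enpep and Ldhd ran opposite, with r of -0.88 over the 18 libraries and -0.54 after centring.

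Markers of other liver cells were compared across the groups, since several of the 9 genes are known from other cell types too. Of 8 sinusoidal endothelial markers, Ptprb alone was a DEG by LL genotype in females (-0.77 ± 0.21; DESeq2 adjusted P = 0.0335), where 0.658% of genes were. The summed endothelial level ranged from 481 to 974 counts in female PP and from 355 to 700.1 in female LL mice. The 8 Kupffer cell markers summed to 992 to 1178 in female PP and 595 to 938 in female LL mice without overlap. Of single genes tested, 2.66% were apart in females. Of the Kupffer markers 0 were DEGs there with DESeq2. An unadjusted P below 0.05 was found for 6 endothelial, 3 Kupffer and 3 of 5 erythroid markers in females, where 13.0% of all genes had one, and for 0, 6 and 0 in males, where 7.83% had one. These values stand beside the lower Narf, Sash1 and Ptpn3 of LL females and the differences of LL males. In males the endothelial sum ranged from 256 to 433 in PP and 362 to 460.1 in LL mice, the stellate and fibroblast sum from 333 to 665 and 580.3 to 909.8, and the Kupffer sum from 520.0 to 1339 and 483 to 822. Between the sexes 5 of 8 endothelial, 4 of 7 tested stellate and 3 of 8 Kupffer markers were higher in females, beside the higher Enpep. The part of these cells in the differences of the 9 genes was not tested. Of the cholangiocyte markers 1 of 8 passed the filter, and 0 of 8 lymphocyte and neutrophil and 0 of 6 mesothelial markers passed it. The 5 erythroid markers summed to 1282 to 2275 counts (median 1723) in PP females, 1125 to 6055 (median 4879) in LL females, 1982 to 5889 in PP males and 966 to 4155 in LL males. Of them 0 were DEGs by LL genotype with DESeq2, and Alas2, the erythroid enzyme of haem synthesis, was lower in females than in males (-2.41 ± 0.19; DESeq2 adjusted P = 1.65e-35).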

How the data were processed

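The authors extracted liver RNA with Trizol and columns with DNase digestion, sequenced samples above a RIN limit, checked reads with FastQC without trimming, and quantified GENCODE M26 transcripts (GRCm39) with Salmon 1.4.0 (submitters' processing notes). The study left out 1 wild-type mouse whose expression differed from the rest. Its methods do not name the diet group of that mouse, which may not belong to the livers used here. The estimated counts deposited by the authors are unscaled read numbers per transcript, and the deposited TPM values are scaled by length to the same total per library. Layout and strandedness are not given in the sources used here.

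Transcripts were joined to genes by GENCODE release 39, which held 137570 of 139225 transcripts and at least 99.8% of the counts of each library. Estimated counts were summed per gene and rounded. Tests covered the 10938 genes that reached 10 counts in 4 or more libraries, and all 9 genes passed. Total counts of 3794671 to 6613905 per library mean that a gene at about 50 counts carries a wide counting error. Fragment length is the median of length less effective length over transcripts of at least 3000 bases.

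DESeq2 1.42.0 in R 4.3.3 was fitted to all 18 libraries with the 4 groups as levels, as the study's methods name DESeq2. A gene was a DEG when its Benjamini-Hochberg adjusted P was under 0.05 and its fold reached 1.3 or fell to 0.7. An adjusted P left empty by independent filtering was kept empty. Intervals are 95% Wald intervals. Alternatives were edgeR 4.0.16, TMM scaling, no filters, transcript length offsets, fragment length, age and replicate terms, each sex alone, limma 3.58.1 on TPM and leaving out each library. The fit was tested on simulated data. Simulated counts for the LL contrasts held no effect of fragment length or age, so they cannot show how these enter the LL calls. Shares of transcripts are descriptions.

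The members and gene lists were chosen with earlier results of these data known. Named genes were all 9 members, the 3 genes with the highest r to each among genes whose normalized counts averaged 50 or more, and listed genes that were DEGs. Libraries of 1 group differed by more than sampling noise (chi-square per degree of freedom 12.3 to 107), so none was another of its group sequenced again. This check cannot tell separate libraries of the same mouse from libraries of different mice. Promoter sequences are RefSeq's on GRCm38.p6, and introns were read from GRCm39.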

Additional observations from a re-analysis of the deposited data

Results flagged for a closer look

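Tns3, the tensin, had a ratio of LL to PP means of 1.64 in males and 0.911 in females. All 4 male LL mice lay above the male PP mean, and all 5 female LL mice lay below the female PP mean of 104 normalized counts. The female LL mice also lay inside the female PP range, and the female log2 fold change of -0.14 ± 0.15 (SE) became 0.04 with fragment length as a term. The difference between the sexes was not tested, and Tns3 was chosen with these changes known. PP males, at 64.4 ± 12.4 counts (SD, n = 4), were the group apart from the others.

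Enpep stood out in female LL mouse 3, at 481 normalized counts against 285 to 330 in the other 4 mice of that group. The gap was larger than Dixon's limit for 5 samples. The library also had the longest fragments of the female LL group, at 377 bases, and the part of that was not tested. Without this mouse the log2 fold change of Enpep in females was -0.38.

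The share of Nup54-201 in the counts of its gene was 96.8% in male LL mouse 2 and 100% in the other 3 male LL mice, so the gap rests on a single value below the maximum. For these checks 48 groups were examined, 2 passed the limit, and chance gives about 1 in 20.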

How the results depend on the processing

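Leaving out 1 library gave 20 to 58 DEGs by LL genotype in males against 31, 28 (without female PP mouse 5) to 276 (without female PP mouse 4) in females against 72, 1024 to 1202 between the sexes against 1166, and 3 to 11 slopes on fragment length against 5. DEGs by LL genotype in males were 3 with edgeR, 53 with the transcript length offset, 0 with limma on log2(TPM + 1) with or without the filter on low values, 9 with limma on log2(TPM + 0.1), 0 with edgeR and the fragment length term and 53 with the offset and that term. In females they were 3, 28, 0 (1 without the filter), 0, 0 and 31 under these settings, 14 with the fragment length term and 44 with the age term. Where 0 were called, 718 to 2103 genes had an unadjusted P below 0.05. Between the sexes they were 3856 with limma on log2(TPM + 1), 4345 on log2(TPM + 0.1), 3299 without the filter and 745 with the offset and fragment length. Called slopes numbered 0 with edgeR, 19 without the filter on low counts, 115 with the offset, 14 with the age term, 1, 0 and 0 with limma on TPM (pseudocount 1, 0.1, and 1 without the filter) and 33 with the replicate block. The combined settings were chosen after seeing the data. The causes were not tested. The leading transcript held 95% of its gene in 6 of the 9 genes by counts and in 3 by TPM, and the order of the 4 group means was the same in 2 of the 9 genes by TPM.

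PP and LL mice of the same replicate number had r from -0.169 to 0.159 after centring each group, with not every pair above 0.1. With so few mice per group, such r cannot show whether mice were paired by litter or otherwise. With a replicate block 34 genes were called in males, 54 in females and 913 between the sexes, and this block changed no call of the 9 genes that had an adjusted P.

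The following estimates changed sign. Values on TPM are given after the median shift of all genes is taken off. Without that step Narf (0.43 on log2(TPM + 1) and 0.51 on log2(TPM + 0.1)) and Prg4 (0.41 and 0.45) were DEGs higher in females (limma adjusted P from 0.0274 to 0.0297), and without the filter Prg4 stayed one (0.0429) and Narf did not (0.0533). Also without it, Narf (0.10 and 0.12) and Ptpn3 (0.11 and 0.18) in males by LL genotype and, between the sexes, Ptpn3 (0.12 and 0.18), Nup54 (0.04 and 0.07) and, with no filter on low values, Rasal2 (0.04) turned positive and were no DEGs. Between the sexes, Narf was 0.049 on log2(TPM + 1) with and without the filter, Sash1 was -0.00054 there and -5.34e-05 with the replicate block, and Prg4 was 0.036 on log2(TPM + 1), 0.014 with the fragment length term and 0.015 with edgeR and that term. In females Tns3 was 0.038 with the fragment length term and 0.036 with edgeR and that term. Leaving out 1 library gave -0.032 to 0.079 for Sash1 and -0.11 to 0.0089 for Prg4 between the sexes, and -0.042 to 0.095 for Prg4 and -0.092 to 0.0073 for Ldhd by LL genotype in females.

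Slopes on fragment length that changed sign are given with the offset, with limma on log2(TPM + 1) (the same without the filter) and on log2(TPM + 0.1). They were -0.12, -0.094 and -0.12 for Narf, -0.077, -0.043 and -0.088 for Sash1, -0.014, -0.021 and -0.015 for Tns3, 0.029, 0.018 and 0.020 for Enpep, and -0.052, -0.053 and -0.059 for Ldhd. Ptpn3 was -0.0017 on log2(TPM + 0.1), Rasal2 0.0092 on log2(TPM + 1) without the filter, Ldhd -0.0011 and Nup54 0.019 with the age term, and Nup54 0.014 with the replicate block. Leaving out 1 library gave slopes from -0.020 to 0.056 for Narf, -0.061 to 0.032 for Rasal2, -0.076 to 0.017 for Enpep, -0.020 to 0.022 for Ldhd and -0.084 to 0.017 for Nup54.

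Over 14 other settings and 18 left-out libraries, 1069 estimates of the 9 genes were compared with the main fit. Another 30 were left out, because they had no adjusted P where the main fit had one. Counts of 13.1 to 80.5 per library limit Rasal2 most.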
